A study of Rattus norvegicus with 9 samples.

Results

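Genes that moved the same way under YEXX-2A and under YWCH-4A were followed in NRK-49F, an established fibroblast line from rat kidney. The 6 compound libraries were set against the 3 vehicle libraries, and a gene was taken as shared when all 6 compound libraries lay above, or all 6 lay below, all 3 vehicle libraries. Of 11473 genes tested, 2757 met that rule, 1252 of them higher and 1505 lower. Every group was wild type and had received TGF-β1, with a 48 h incubation per the labels: 3 libraries with vehicle, 3 with YEXX-2A and 3 with YWCH-4A. The labels name the compounds by code alone and give neither dose nor timing. Fibroblasts without TGF-β1 were not analysed here, so a fall cannot be read as a return to an unstimulated level. The labels give 3 biological replicates per condition without saying that they were separate cultures, so p-values cover no more than the spread among these libraries.

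TGF-β1 binds a complex of type I and type II receptor kinases, which phosphorylate SMAD2 and SMAD3. In kidney fibroblasts this signal drives the myofibroblast state, in which cells assemble α-smooth muscle actin fibres, secrete fibrillar collagens and crosslink them into scar matrix. The same state draws on glycolysis and on ATF4, a transcription factor that supplies glycine and proline for collagen chains.

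Total counts ran from 13675868 to 21923715 per library, and levels are given as CPM on TMM-scaled library sizes. Among vehicle libraries the biological coefficient of variation was 16.7%, against 7.34% among YEXX-2A and 3.67% among YWCH-4A libraries. Without vehicle replicate 2 it was 4.69% among vehicle libraries. That library was the vehicle library closest to the compound libraries for 6.95% of the shared higher and 6.64% of the shared lower genes. Leaving it out gave 1471 shared higher and 1711 shared lower genes, which held 2751 of the 2757. The rule binds fewer libraries when any is left out, so nearly all shared genes must stay shared. That overlap therefore does not measure the weight of vehicle replicate 2. Of 16 fibroblast markers 10 were tested, Pdgfrb and Vim among them, with 5 called higher and 5 lower in the pooled contrast; Mgp and Ddr2 were shared higher and Col1a1 shared lower. Their summed level was 35631 to 46636 CPM with vehicle, 28382 to 31066 with YEXX-2A and 10845 to 11672 with YWCH-4A, most of it Col1a1. Col1a2, annotated under another symbol, was not among the 10 and is not in these sums. Without Col1a1 the sums were 7716 to 8235, 7399 to 7844 and 4624 to 4865 CPM. Of 14 leukocyte markers, Cd68 alone passed the filter on low counts, at 47.1 to 62.8 CPM with vehicle, 41.7 to 44.7 with YEXX-2A and 66.1 to 73.5 with YWCH-4A. Of 15 kidney epithelial markers 3 passed and 6 had no count in any library. The summed level of these 3 was 1719 to 2212 CPM with vehicle, 1486 to 1572 with YEXX-2A and 901 to 950 with YWCH-4A, most of it Krt8.

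The mean of both compound groups against vehicle was tested with edgeR's quasi-likelihood test, and genes were called at an adjusted p under 0.05. YEXX-2A alone against vehicle called 36.1% of tested genes and YWCH-4A alone 30.6%. The pooled contrast called 1775 genes higher, 15.5% of those tested, and 2014 lower, 17.6%. Shared higher genes made up 10.9% of tested genes and shared lower genes 13.1%, which are the backgrounds for the counts by gene group that follow. Of the 2757 shared genes, 2478 were also called by the pooled contrast and 279 were not. A further 1311 genes were called by the pooled contrast without being shared, as not all 6 compound libraries lay on the same side of all 3 vehicle libraries. The rule used the same values as the pooled contrast, so fold changes of shared genes describe them and their p-values are no independent support. Scaling by library totals alone, without a composition factor, moved the median log2 change of all tested genes from 0.04 to 0.16 and put 73.1% of the calls higher, against 46.8% with TMM factors.

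Most shared changes were small. The median log2 fold change of the shared higher genes was 0.46 with YEXX-2A and 0.46 with YWCH-4A, and that of the shared lower genes -0.36 and -0.40, against 0.01 and 0.03 over all tested genes. A change of at least 2-fold under both compounds was seen for 53 shared higher and 48 shared lower genes. Shared lower genes were the more abundant, with a median of 57.5 CPM over the 9 libraries against 28.3 CPM for shared higher and 26.3 CPM for all tested genes. The vehicle libraries entered both contrasts against vehicle, so the values of the compounds are set side by side without a correlation.

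**Figure D1:**
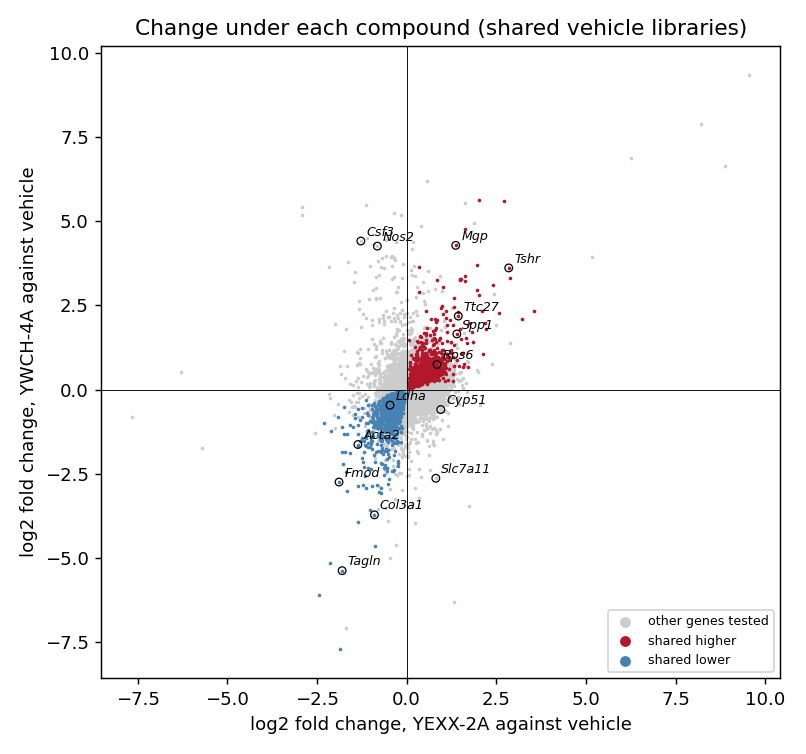
Each point is 1 of the 11473 tested genes, with its log2 fold change against vehicle under YEXX-2A on the x axis and under YWCH-4A on the y axis; the 1252 shared higher genes are red, the 1505 shared lower genes blue and the rest grey. Both axes use the same 3 vehicle libraries, so the x and y positions of a gene are not independent; shared genes fill the upper right and lower left, while Nos2, Csf3, Cyp51 and Slc7a11 lie at the upper left or lower right.

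Whether shared genes differed in size between the compounds was tested directly, as YWCH-4A against YEXX-2A, a contrast that does not use the vehicle means. That test called 31.3% of all tested genes, 1858 of 11473 higher and 1735 lower with YWCH-4A. It called 208 of the shared higher genes, 16.6%, of which 172 were further from vehicle with YWCH-4A and 36 with YEXX-2A. It called 375 of the shared lower genes, 24.9%, of which 326 were further from vehicle with YWCH-4A and 49 with YEXX-2A. Without vehicle replicate 2 the number of shared genes called as different was 1068 in place of 583. The dose of neither compound is given, so the difference is one between these libraries as labelled.

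Among the shared higher genes, ranked by the smaller of their changes under the compounds, Tshr led. It encodes the thyrotropin receptor, a G-protein-coupled receptor. Its level was 0.977, 0.634 and 0.729 CPM with vehicle, 6.87, 4.32 and 5.99 with YEXX-2A and 9.20, 10.4 and 9.57 with YWCH-4A. No compound library came near the vehicle range, and the log2 fold changes were 2.85 (SE 0.24) and 3.61 (SE 0.24). The gap between the highest vehicle and the lowest compound library, 2.04 on the log2 (CPM + 0.1) scale, was the widest among shared higher genes. Rxfp1, the receptor for relaxin, a hormone known for lowering collagen production, was at 6.58, 4.04 and 6.12 CPM with vehicle, 15.8, 19.1 and 12.8 with YEXX-2A and 15.8, 17.1 and 14.7 with YWCH-4A. Its log2 fold changes were 1.51 and 1.50, and the difference between the compounds was -0.01 (95% interval -0.38 to 0.37, adjusted p = 0.982). Nox1, the catalytic subunit of an NADPH oxidase, was higher by 1.63 and 3.21 on the log2 scale, from 0.317 to 1.24 CPM with vehicle.

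The abundant leaders were Ttc27 and Myh4. Ttc27, a tetratricopeptide repeat protein, was at 47.5 ± 3.61 CPM with vehicle, 129 ± 1.39 with YEXX-2A and 216 ± 4.44 with YWCH-4A (SD, n = 3 each). Myh4, annotated as a skeletal muscle myosin heavy chain, was at 29.0 ± 1.36, 78.4 ± 2.59 and 142 ± 8.55 CPM. In both, the 3 groups formed 3 separate bands, with YWCH-4A highest. Ifit1bl, an interferon-induced protein gene, Cpne5, Sorbs2, Fam49a, Cd9, Mcoln3 and Trappc2b completed the 12 leading rises, with log2 fold changes of 1.51 to 2.20 under YEXX-2A and 1.96 to 3.68 under YWCH-4A. Trappc2b, at 1.01 CPM over all libraries, was no longer called by limma-voom with weights per group (adjusted p = 0.123). Spp1, which encodes the secreted matrix protein osteopontin and was singled out after its values were seen, stood at 3012, 2166 and 3015 CPM with vehicle, 7234, 7289 and 7126 with YEXX-2A and 8326, 8801 and 8569.5 with YWCH-4A. Its log2 fold changes were 1.40 (SE 0.11) and 1.65 (SE 0.11).

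The leading falls were led by matrix and contractile genes. Col11a1, a minor fibrillar collagen, was at 2.93, 2.69 and 3.21 CPM with vehicle and 0.364, 0.458 and 0.888 with YEXX-2A, and had 2 counts in the 3 YWCH-4A libraries together. Fmod, a proteoglycan that binds collagen fibrils, was at 24.2, 30.0 and 24.5 CPM with vehicle, 6.87, 7.58 and 6.81 with YEXX-2A and 4.27, 3.37 and 4.06 with YWCH-4A, and had the widest gap of the shared lower genes, 1.66 on the log2 (CPM + 0.1) scale. Tagln, which encodes transgelin of smooth muscle actin filaments, was at 49.1, 55.9 and 56.0, 16.1, 14.3 and 16.0 and 1.64, 0.934 and 1.25 CPM in the same order of groups. Fmod and Tagln differed between the compounds by -0.86 and -3.58 on the log2 scale, with YWCH-4A the lower (edgeR adjusted p = 0.00117 and 8.59e-08).

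Other leading falls lay outside the matrix. Cacna1g, a T-type calcium channel subunit, was at 3.09 to 3.45 CPM with vehicle and 0.415 to 1.04 with the compounds. Cyp11a1, the cholesterol side-chain cleavage enzyme, was at 2.67 to 4.45 and 0.778 to 1.22 CPM, and Cyth4, a guanine nucleotide exchange factor of ARF proteins, at 12.4 to 16.3 and 4.36 to 5.91 CPM. For these 3 genes the difference between the compounds was not called, with intervals of -1.10 to 0.21, -0.75 to 0.52 and -0.62 to -0.01 on the log2 scale. The test uses a spread shared with the more variable vehicle libraries, so a missed call does not show equal levels. Sh3tc2, Elfn2, Actg2, Acta2, AABR07067023.1 and LOC102550080 completed the 12.

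**Figure D2:**
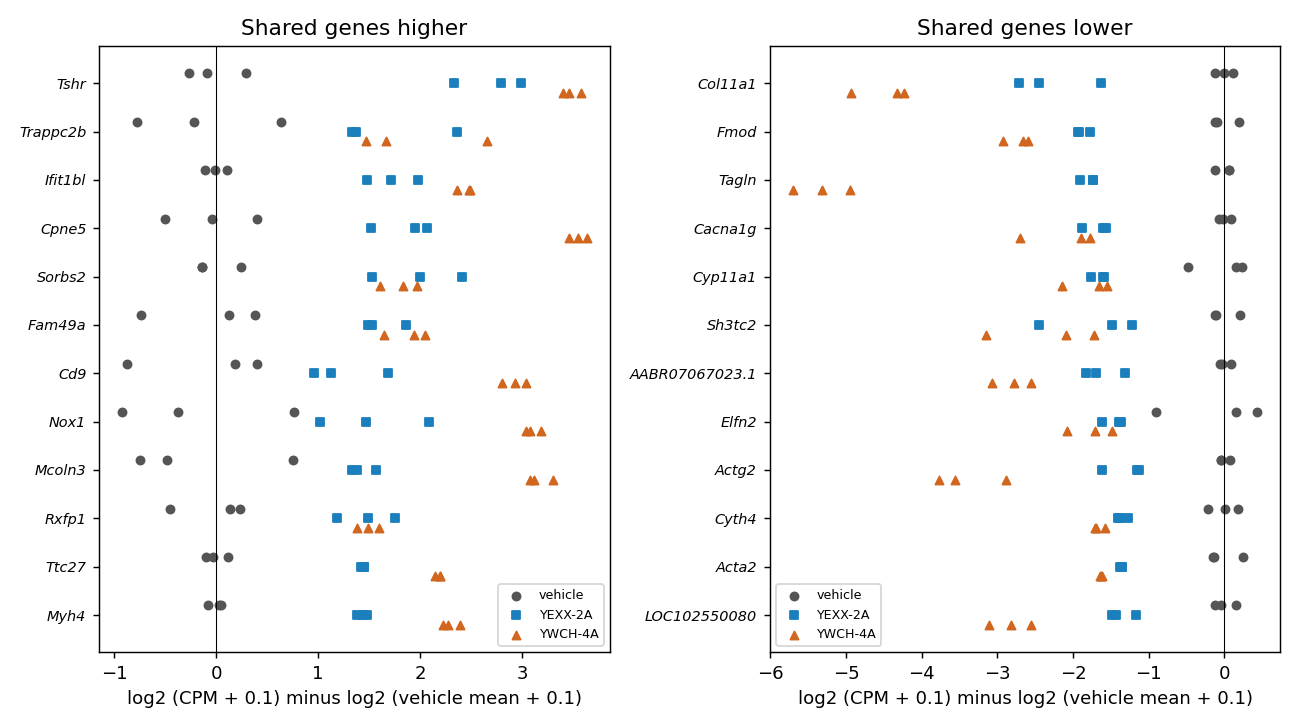
For the 12 leading shared rises (left) and 12 leading shared falls (right), each point is 1 library, placed on the x axis by log2 (CPM + 0.1) minus the same for the vehicle mean; circles are vehicle, squares YEXX-2A and triangles YWCH-4A. For every gene all 6 compound points lie on the same side of the 3 vehicle points, by construction; YWCH-4A points lie beyond YEXX-2A points for Tagln, Col11a1, Cpne5 and Mcoln3, and overlap them for Sorbs2, Rxfp1 and Cyp11a1.

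At the edge of the rule the separation was slight. Tigd2, the shared higher gene with the narrowest gap, was at 3.64 to 4.96 CPM with vehicle and 4.96 to 6.66 with the compounds, and Gtf3c1, the narrowest of the shared lower genes, at 190.0 to 237 and 166 to 190.0 CPM. Just outside it, Ftl1, the ferritin light chain, was at 6282 to 7669.8 CPM with vehicle and 2933 to 6282 with the compounds. LOC100912481 had no count with vehicle and none in at least 1 compound library.

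The contractile apparatus comprises the actin cables and adhesions through which myofibroblasts pull on matrix. Of 23 tested genes, 13 fell and 3 rose in the pooled contrast, and 10 were shared lower and 2 shared higher (43.5% and 8.70%). The median log2 fold change was -0.25 in the pooled contrast, against 0.04 over all genes, -0.09 with YEXX-2A and -0.50 with YWCH-4A. YEXX-2A alone called 9 of the 23 lower and 3 higher, where 18.5% and 17.6% of all genes were called. YWCH-4A alone called 15 lower and 4 higher, where 14.9% and 15.7% of all genes were called. In these bulk libraries fewer contractile cells and less RNA per cell cannot be told apart. Acta2, α-smooth muscle actin, was at 291, 382 and 292 CPM with vehicle, 124, 126 and 126 with YEXX-2A and 103, 105 and 104 with YWCH-4A. The compound libraries lay close together and far below every vehicle library, and the pooled fall was 1.49 on the log2 scale (SE 0.08, edgeR adjusted p = 1.06e-06). YWCH-4A lay -0.27 from YEXX-2A (95% interval -0.49 to -0.06, edgeR adjusted p = 0.0544), and every YWCH-4A library lay below every YEXX-2A library. The test uses a spread shared with the vehicle libraries, which varied most (16.7%, against 7.34% and 3.67%). The missed call therefore does not show equal levels under the compounds.

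Tagln fell by 1.80 and 5.37 on the log2 scale and Actg2, smooth muscle γ-actin, by 1.37 and 3.94. Itga11, the collagen-binding integrin α11 of myofibroblasts, went from 1026 ± 154 CPM to 607 ± 19.7 with YEXX-2A and 124 ± 7.26 with YWCH-4A. Tpm1, Actn1, Flna, Des, Pdlim7 and Csrp1 were also shared lower. Actn1 was not called with library totals as the scale (-0.05, edgeR adjusted p = 0.397). The tropomyosin gene Tpm2 (355 ± 7.87, 393 ± 8.55 and 499.7 ± 0.448 CPM) and the non-muscle myosin gene Myh10 were shared higher. Cald1, caldesmon, went opposite ways, at 0.63 with YEXX-2A and -0.60 with YWCH-4A. With the 6 compound libraries treated as 1 group, 6 of the list fell in place of 13, and Tagln, Itga11 and Tpm1 were no longer called (adjusted p = 0.0522, 0.113 and 0.0598), as the distance between the compounds then counts as spread.

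Collagen genes had the highest share of shared lower genes of any list. Of 18 tested, 14 fell and none rose, and 13 were shared lower, 72.2%. The median log2 fold change was -0.57 with YEXX-2A and -1.17 with YWCH-4A. The fibrillar collagen Col3a1 was at 7996, 9943 and 9001 CPM with vehicle, 4538, 4815 and 5128 with YEXX-2A and 632, 691 and 725 with YWCH-4A. The 3 groups did not overlap, and the pooled fall was 2.31 on the log2 scale (SE 0.08, edgeR adjusted p = 6.48e-08). Col1a1, the main chain of type I collagen, was at 27915, 38401 and 30248 CPM with vehicle, 20983, 21669 and 23222 with YEXX-2A and 6221, 6363 and 6807 with YWCH-4A. Its partner chain Col1a2 is split over 2 gene models annotated under another symbol and is not among the 18. The sum of both models was 26527, 35797 and 29750 CPM with vehicle, 19691, 21067 and 22187 with YEXX-2A and 5650, 5852 and 6243 with YWCH-4A.

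The shared lower collagens covered several structural classes. They held the fibrillar chains Col1a1, Col3a1, Col5a1, Col5a2, Col5a3 and Col11a1, the basement membrane chains Col4a1 and Col4a2, the beaded filament chains Col6a1 and Col6a2, Col7a1 of anchoring fibrils, Col8a2 and Col12a1. Col5a3 was at 117 ± 17.6, 57.4 ± 1.57 and 36.2 ± 2.17 CPM with vehicle, YEXX-2A and YWCH-4A. Col7a1 was the exception in order, at 8.08 ± 1.42, 2.32 ± 0.162 and 3.72 ± 0.233 CPM, with YEXX-2A the lower (YWCH-4A minus YEXX-2A 0.68, edgeR adjusted p = 0.0143). Col4a5 and Col8a1 rose with YEXX-2A (0.44 and 0.32) and fell with YWCH-4A (-0.57 and -0.41). Taking the compounds as 1 group, 8 fell in place of 14, and Col3a1 and Col1a1 were not called (adjusted p = 0.125 and 0.113).

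Enzymes and chaperones that hydroxylate, fold and crosslink collagen were lower as well. Of 26 tested, 19 fell and 1 rose, and 16 were shared lower, 61.5%. They included the prolyl 4-hydroxylases P4ha1, P4ha2 and P4ha3, the lysyl hydroxylases Plod1 and Plod3, the collagen chaperone Serpinh1 and the lysyl oxidase-like crosslinkers Loxl1, Loxl2 and Loxl3. Serpinh1 was at 2412, 2839 and 2424 CPM with vehicle, 1990.0, 1974 and 1973 with YEXX-2A and 1318, 1379 and 1406 with YWCH-4A. P4ha3 fell by 0.45 and 0.84 and Loxl2 by 0.42 and 1.53 on the log2 scale. The crosslinking transglutaminase Tgm2 went opposite ways, at -0.62 with YEXX-2A and 1.93 with YWCH-4A.

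Matrix glycoproteins and proteoglycans were called lower more often than they were shared. Of 30 tested, 20 fell and none rose, but 7 were shared lower, 23.3%: Fmod, Sparc, Thbs2, Ccn2, Fbln2, Mfap4 and Mfap5. Sparc, a collagen-binding secreted protein, was at 2614, 2992 and 2818 CPM with vehicle, 1923, 1992 and 2024 with YEXX-2A and 774, 818 and 846 with YWCH-4A. Ccn2, a matricellular protein induced by TGF-β, separated narrowly under YEXX-2A (3253 to 3559 CPM with vehicle against 2766 to 3033) and widely under YWCH-4A (649.7 to 752). Fn1, fibronectin, was not shared and not called (26512 ± 3142, 23479 ± 1344 and 26150.4 ± 1363 CPM; pooled log2 fold change -0.10, SE 0.08, edgeR adjusted p = 0.353). The latency protein gene Ltbp1, Nid2 and Thbs1 rose with YEXX-2A and fell with YWCH-4A. The number called lower was 14 without YEXX-2A replicate 2, 12 with library totals as the scale and 3 with the compounds as 1 group.

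Among 30 genes of TGF-β signalling and SMAD targets, 9 fell (30.0%) and 4 rose (13.3%), against 17.6% and 15.5% of all genes. The median pooled change was 0.04, the same as over all genes. The ligand gene Tgfb3 was at 249, 289.5 and 275 CPM with vehicle, 196, 199.5 and 206 with YEXX-2A and 116, 113 and 115 with YWCH-4A. The ligand gene Tgfb1 was not shared: it was at -0.37 with YEXX-2A and 0.31 with YWCH-4A on the log2 scale, both called. Of the receptors, the type I receptor gene Tgfbr1 was shared higher, at 20.4, 11.2 and 20.6, 32.4, 36.7 and 29.6 and 23.3, 26.0 and 23.5 CPM. The signal transducer Smad3 (116 ± 7.37, 99.3 ± 5.18 and 86.6 ± 2.13 CPM), the inhibitory Smad6, the co-receptor Eng, the target Tgfbi and the transcription factors Jun and Snai1 were shared lower. Bambi, a decoy receptor, was shared higher (0.22 and 0.55). Calls in the higher direction numbered 7 without vehicle replicate 2 and 12 with library totals as the scale, against 4 here, and with the compounds as 1 group none rose and 5 fell.

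Of 21 matrix proteases and inhibitors, 2 were shared lower and 1 shared higher, under the background in each direction. The pooled contrast called 7 higher (33.3%, against 15.5% of all genes) and 4 lower (19.0%, against 17.6%). The medians were -0.32 with YEXX-2A and 0.24 with YWCH-4A. With YWCH-4A 13 were called higher and 5 lower than with YEXX-2A, against 1858 and 1735 of all 11473 genes. With the compounds as 1 group none rose and 2 fell. Adam19, a membrane metalloproteinase, was at 324, 380.1 and 356 CPM with vehicle, 163, 165 and 175 with YEXX-2A and 68.2, 67.1 and 75.9 with YWCH-4A. The metalloproteinase inhibitor Timp3 fell by 0.71 and 1.51, and Serpine2, an inhibitor of serine proteases, rose by 0.28 and 0.95 on the log2 scale.

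**Figure D3:**
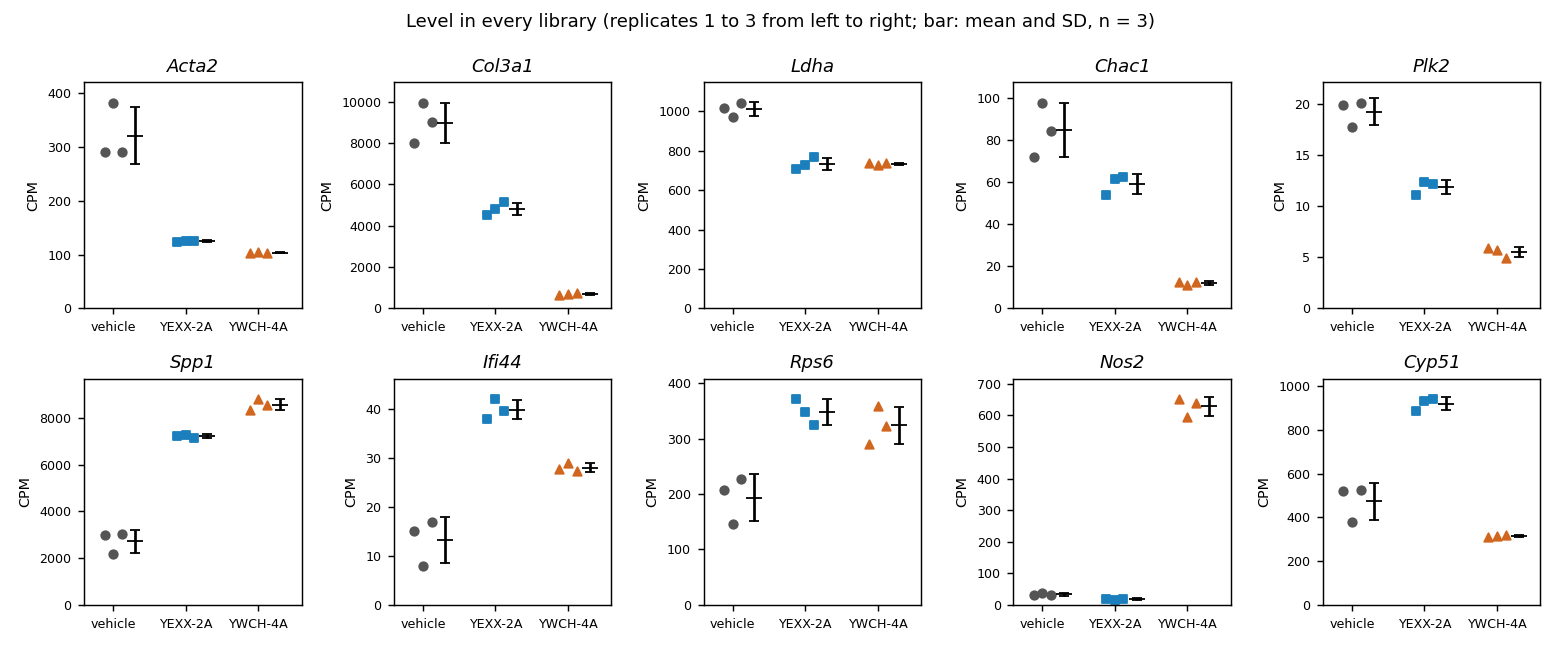
CPM of 10 genes in each library, with replicates 1 to 3 of a group from left to right and, beside them, the group mean with its SD (n = 3); each y axis starts at 0. Acta2, Col3a1, Ldha, Chac1 and Plk2 are lower and Spp1, Ifi44 and Rps6 higher in all 6 compound libraries, while Nos2 and Cyp51 go opposite ways under the compounds.

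ATF4 carries out the integrated stress response, and its targets make and import amino acids. Of 30 tested genes of this list, 25 fell and 1 rose, and 19 were shared lower, 63.3%. Atf4 itself was at 615, 737 and 659 CPM with vehicle, 571, 607 and 613 with YEXX-2A and 299.8, 302 and 307 with YWCH-4A. Chac1, which degrades glutathione and is a sensitive ATF4 target, was at 72.1, 97.9 and 84.6, 53.9, 61.4 and 62.5 and 12.8, 11.2 and 12.5 CPM. The serine and glycine synthesis genes Phgdh, Psat1, Shmt2 and Mthfd2 and the proline synthesis gene Pycr1 were shared lower, Phgdh at 241 ± 41.2, 168 ± 9.89 and 88.9 ± 2.90 CPM. So were the amino acid transporters Slc7a5, Slc3a2, Slc1a5 and Slc6a9 and the stress factors Ddit3, Ddit4 and Trib3. The median was -0.28 with YEXX-2A and -1.23 with YWCH-4A, and 24 of the 30 genes were called lower with YWCH-4A than with YEXX-2A. Over all genes 1735 of 11473 were called in that direction. Slc38a2, a neutral amino acid transporter, was shared higher (0.37 and 0.24), and the cystine transporter Slc7a11 went up with YEXX-2A (0.82) and down with YWCH-4A (-2.63). With the compounds as 1 group 7 fell in place of 25.

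Aminoacyl-tRNA synthetases, which charge tRNAs and include known ATF4 targets, were lower in part. Of 18 tested, 11 fell and none rose, and 7 were shared lower, 38.9%. Sars1, the seryl-tRNA synthetase, was at 430.2, 484 and 415 CPM with vehicle, 337, 337 and 366 with YEXX-2A and 233, 227 and 230.3 with YWCH-4A. In the pooled contrast Sars1, Gars, Cars, Aars and Wars1 fell by 0.51 to 0.65 on the log2 scale. Lars1 went opposite ways (0.49 and -0.48). With the compounds as 1 group 3 of the list fell.

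Genes of glycolysis and hypoxia had like medians under both compounds. Of 30 tested, 23 fell and 1 rose, and 18 were shared lower, 60.0%. The medians were -0.40 with YEXX-2A and -0.42 with YWCH-4A, and the median of their difference was -0.01. Between the compounds 6 genes were called higher and 3 lower with YWCH-4A, 9 of 30, where 31.3% of all genes were called. With the compounds as 1 group 15 fell. Ldha, lactate dehydrogenase A, was at 1015, 973 and 1043 CPM with vehicle, 707, 727 and 768 with YEXX-2A and 736, 728 and 736 with YWCH-4A. The vehicle libraries lay above all others, and the difference between the compounds had a 95% interval of -0.13 to 0.13 on the log2 scale. Of the steps from glucose to lactate, the transporter Slc2a1, the hexokinases Hk1 and Hk2, Gpi, Pfkl, Pfkm, Aldoa, Aldoc, Tpi1, Pgk1, Pgam1, Eno1, Pkm and Ldha were shared lower. Pkm, pyruvate kinase, fell by 0.72 and 0.60, and Hk2 by 0.69 and 0.63. Ca9, a carbonic anhydrase induced by hypoxia, differed between the compounds (304 ± 43.5, 177 ± 4.89 and 86.1 ± 6.82 CPM; adjusted p of the difference 2.43e-05). With library totals as the scale 15 were shared lower, the median was -0.34 and Pfkm was not called (-0.07, edgeR adjusted p = 0.257).

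NRF2 targets, which make reducing power and conjugate glutathione, were at a median of -0.16. Of 26 tested, 14 fell and none rose, and 11 were shared lower, 42.3%. Tkt, transketolase of the pentose phosphate pathway, was at 611, 768 and 604 CPM with vehicle, 445, 455 and 503 with YEXX-2A and 356, 333 and 356 with YWCH-4A. Taldo1 of the same pathway, the haem oxygenase gene Hmox1, the glutathione transferases Gsta1, Gstm1 and Gstp1, and Gsr and Txnrd1 were shared lower. Gstm1 lay lower with YEXX-2A than with YWCH-4A (93.7 ± 12.4, 47.8 ± 1.61 and 67.8 ± 1.74 CPM), the reverse of Gsta1. Nqo1, a quinone reductase often used to mark NRF2 activity, was not shared (0.07 with YEXX-2A and -2.35 with YWCH-4A). With library totals as the scale 4 were shared lower and 10 fell, and with the compounds as 1 group 4 fell. Taldo1 and Txnrd1 were not called with library totals (-0.03 and -0.02, edgeR adjusted p = 0.543 and 0.625).

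Tubulins, the subunits of microtubules, were shared lower in 7 of 11 cases (63.6%) and shared higher in 1 (9.09%). In the pooled contrast 7 fell and none rose. With library totals as the scale 5 were shared lower, and 6 fell and 2 rose. Tubb2a was at 313, 376 and 314 CPM with vehicle, 191, 189.6 and 201 with YEXX-2A and 178, 170.0 and 169 with YWCH-4A, and Tuba1a fell by 0.49 and 1.18 on the log2 scale. Tubb6 went opposite ways (-0.23 and 0.19). The median was -0.28, and -0.19 without vehicle replicate 2. Tubulin genes are near-identical in places, so reads may be divided between them.

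Interferon-stimulated genes were the list most often shared in the higher direction apart from ribosomal proteins. Of 41 tested, 27 rose and 1 fell, and 15 were shared higher, 36.6%, and none lower. The median was 0.64 with YEXX-2A and 0.22 with YWCH-4A, and 21 of the 41 were called lower with YWCH-4A than with YEXX-2A. Over all genes 1735 of 11473 were called in that direction. Ifi44, an interferon-induced cytoplasmic protein, was at 15.0, 7.92 and 16.9 CPM with vehicle, 38.0, 41.9 and 39.6 with YEXX-2A and 27.7, 29.0 and 27.3 with YWCH-4A, and Oasl2, an oligoadenylate synthetase-like gene, at 47.5, 41.9 and 51.2, 88.2, 87.2 and 80.3 and 64.5, 60.7 and 57.9 CPM. In both genes vehicle libraries were lowest and YEXX-2A libraries highest.

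For some interferon genes the difference between the compounds was not called. Parp12, an antiviral ADP-ribosyltransferase, was at 81.5 ± 1.87, 106 ± 4.57 and 109.8 ± 2.49 CPM, with a difference of 0.05 (95% interval -0.08 to 0.18). Parp9 and its partner Dtx3l differed by 0.08 and -0.03, with intervals of -0.24 to 0.40 and -0.31 to 0.24, and Parp14 by 0.22 (-0.11 to 0.54). The guanylate-binding proteins Gbp1, Gbp2 and Gbp4, Xaf1, Cmpk2, Helz2, Ifi44l and the immunoproteasome subunit Psmb9 were also shared higher. Isg15 and Rsad2 went up with YEXX-2A (0.62 and 0.93) and down with YWCH-4A (-0.87 and -0.66), and Irf1 the reverse (-0.27 and 0.95). Without vehicle replicate 2, 20 were shared higher, and with library totals as the scale 23. With the compounds as 1 group 12 rose in place of 27.

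Promoters of shared genes were searched for the interferon-stimulated response element, read on both strands as a pair of GAAA blocks with any 2 bases between them. RefSeq gave promoters (GRCr8, a window around the gene start) for 926 shared higher, 1132 shared lower and 8231 tested genes. The element was in 50 of the shared higher promoters (5.40%), 11 of the shared lower (0.972%) and 238 of all (2.89%). Of the 50 genes, 9 were in the interferon list, of whose 15 shared higher genes 13 had a promoter sequence. Others of the 50 were B2m, a subunit of MHC class I (577 ± 80.8, 825 ± 69.6 and 1143 ± 74.5 CPM), the GTPase gene Igtp and the inflammatory caspase gene Casp1. The 50 also held genes of other functions, such as the ribosomal protein genes Rpl5 and Rpl29, Pold3, Vps41 and Atp6v1a. The promoters of 3 interferon genes that were higher in all 6 compound libraries are shown, with each match in capitals; all of these matches were read from the strand opposite to the gene.
Ifi44, chr2:243303791-243304090 (minus strand): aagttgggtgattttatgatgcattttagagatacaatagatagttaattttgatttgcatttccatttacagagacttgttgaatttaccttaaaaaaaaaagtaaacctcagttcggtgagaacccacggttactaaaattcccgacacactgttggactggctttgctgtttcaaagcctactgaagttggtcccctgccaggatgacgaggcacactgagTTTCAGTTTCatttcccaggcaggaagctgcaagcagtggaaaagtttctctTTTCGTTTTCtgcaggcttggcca
Oasl2, chr12:47383136-47383435 (minus strand): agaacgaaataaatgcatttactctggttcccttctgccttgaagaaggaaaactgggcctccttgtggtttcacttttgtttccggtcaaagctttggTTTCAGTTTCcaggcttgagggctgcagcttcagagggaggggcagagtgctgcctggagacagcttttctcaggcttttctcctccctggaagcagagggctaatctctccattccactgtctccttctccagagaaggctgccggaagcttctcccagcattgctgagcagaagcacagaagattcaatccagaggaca
Parp12, chr4:68850492-68850791 (minus strand): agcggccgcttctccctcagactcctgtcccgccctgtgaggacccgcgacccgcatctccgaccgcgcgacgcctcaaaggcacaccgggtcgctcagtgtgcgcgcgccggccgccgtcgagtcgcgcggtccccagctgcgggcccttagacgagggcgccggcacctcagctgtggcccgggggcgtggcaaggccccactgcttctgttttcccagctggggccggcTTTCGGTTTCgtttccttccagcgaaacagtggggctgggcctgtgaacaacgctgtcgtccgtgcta
The matches began at -26 and 26 from the gene start in Ifi44, at -151 in Oasl2 and at -18 in Parp12.

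Other elements were read in the same promoters. The sterol element was rare, in 0.972% of shared lower (11 promoters), 0.324% of shared higher (3) and 0.51% of all promoters (42). In the same order the NF-κB element was in 8.48%, 6.91% and 7.8%, the TEAD element GGAATG in 12.5%, 12.4% and 10.9%, and CCAAT in 36.5%, 38.1% and 38.4%. The hypoxia element core ACGTG was in 26.5% of shared lower, 22.5% of shared higher and 26.7% of all promoters, and the ATF4 composite element TGATGNAA in 1.86%, 1.62% and 1.90%. The E-box CACGTG, which contains ACGTG, was in 10.5%, 7.99% and 9.80%, and the antioxidant element TGACNNNGC in 14.2%, 16.3% and 15.1%. The CArG box, through which serum response factor acts on contractile genes, was in 1.41%, 0.864% and 1.30%. Shared lower promoters had a GC content of 63.4% and shared higher promoters 60.3%, against 61.4% for all. The promoters of Ldha, with 3 overlapping or neighbouring matches to ACGTG on both strands, and Chac1, with 1 match to TGATGNAA, are shown as members of the glycolysis and ATF4 groups in which the element was found.
Ldha, chr1:106507842-106508141 (plus strand): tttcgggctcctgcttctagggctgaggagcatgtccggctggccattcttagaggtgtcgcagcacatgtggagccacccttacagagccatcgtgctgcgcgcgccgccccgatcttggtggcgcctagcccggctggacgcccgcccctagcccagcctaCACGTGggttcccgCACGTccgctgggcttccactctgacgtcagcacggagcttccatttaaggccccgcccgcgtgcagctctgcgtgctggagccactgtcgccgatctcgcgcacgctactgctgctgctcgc
Chac1, chr3:126795881-126796180 (plus strand): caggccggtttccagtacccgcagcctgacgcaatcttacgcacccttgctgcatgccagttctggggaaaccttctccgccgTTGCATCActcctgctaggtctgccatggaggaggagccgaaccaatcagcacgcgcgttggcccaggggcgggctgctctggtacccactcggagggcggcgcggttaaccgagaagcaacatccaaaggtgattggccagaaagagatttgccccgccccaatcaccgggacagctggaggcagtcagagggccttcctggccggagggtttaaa
Of 13 promoters of shared genes read for the element of their list, 5 had a match and are shown. The other 8 had none in this window: Hk2, Asns, Stc2, Slc6a9 and Gpt2, Acta2 and Actg2 for the CArG box, and Psmb9 for the interferon element.

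Cytosolic ribosomal protein genes were shared higher in 25 of 42 cases, 59.5%, and shared lower in 1. In the pooled contrast 26 rose and 1 fell. The median was 0.34 with YEXX-2A and 0.31 with YWCH-4A. Between the compounds 2 of the 42 were called as different, where 31.3% of all genes were. Rps6, a small-subunit protein phosphorylated downstream of mTOR, was at 207, 146 and 227 CPM with vehicle, 371, 348 and 325 with YEXX-2A and 291, 359 and 322 with YWCH-4A. Rpl11 and Rpl5, ribosomal proteins that also bind the p53 regulator MDM2, were at 261 ± 33.0, 355 ± 14.0 and 413 ± 17.4 CPM and 338 ± 65.4, 498 ± 35.6 and 484 ± 31.5 CPM. Rps2 was the shared lower member (2279 ± 195, 1859 ± 57.5 and 2043 ± 24.8 CPM). With library totals as the scale no ribosomal protein gene was shared lower and the fall of Rps2 was not called (-0.09, adjusted p = 0.0954), nor was it called on FPKM or with the compounds as 1 group. Limma-voom with weights per group called 17 of the list higher. Shared higher genes had a median implied transcript length of 2.08 kb, against 2.29 kb over tested genes and 2.35 kb for shared lower genes, and the part of length or RNA quality was not tested. Ribosomal protein genes have many processed copies, between which reads may be divided.

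Targets of p53 and cell cycle inhibitors fell in 9 and rose in 5 of 21 cases, with 9 shared lower, 42.9%, and 4 shared higher, 19.0%. The shared lower genes were Cdkn1a, a cyclin-dependent kinase inhibitor, the growth arrest genes Gadd45a, Gadd45b and Gadd45g, Bax, Phlda3, Aen and the polo-like kinases Plk2 and Plk3. Cdkn1a was at 156, 183 and 146 CPM with vehicle, 135, 122 and 129 with YEXX-2A and 129.7, 129.7 and 127 with YWCH-4A. Its difference between the compounds was 0.00 (95% interval -0.18 to 0.18). Plk2 was at 19.9, 17.7 and 20.1, 11.1, 12.4 and 12.2 and 5.91, 5.76 and 4.94 CPM, and Gadd45a fell by 0.69 and 1.74 on the log2 scale. Ccng2, cyclin G2, and Btg2, an antiproliferative factor, were shared higher with Sesn1 and Rbl2 (Ccng2 36.1 ± 6.35, 50.7 ± 1.48 and 68.4 ± 1.87 CPM).

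**Figure D4:**
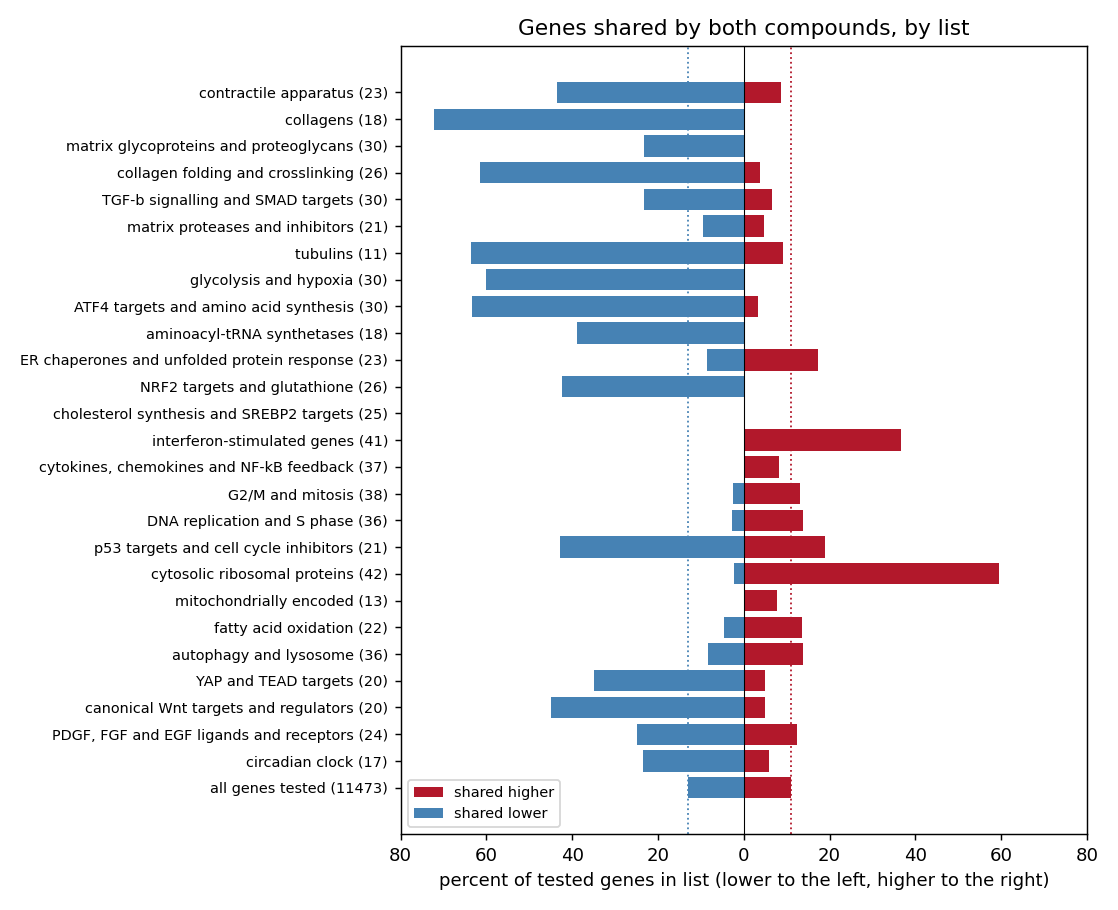
Bars give the percent of each list's tested genes (number in brackets) that were shared lower (left, blue) and shared higher (right, red), with dotted lines at the 13.1% and 10.9% of all 11473 tested genes. Collagens reach 72.2% lower and cytosolic ribosomal proteins 59.5% higher, while the cholesterol list has none on either side.

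The pooled mean and the shared rule parted most where the compounds went opposite ways. In the list of cytokines, chemokines and NF-κB feedback genes, 33 of 37 rose and 2 fell in the pooled contrast (89.2% and 5.41%), yet 3 were shared higher (8.11%, under the 10.9% over all genes). The medians were -0.33 with YEXX-2A and 2.22 with YWCH-4A, and 36 of the 37 were called higher with YWCH-4A than with YEXX-2A. Over all genes 1858 of 11473 were called in that direction. Nos2, the inducible nitric oxide synthase, was at 31.3, 37.3 and 30.2 CPM with vehicle, 19.9, 16.6 and 19.7 with YEXX-2A and 651, 596 and 638 with YWCH-4A. The YEXX-2A libraries lay below and the YWCH-4A libraries above every vehicle library, while the pooled log2 fold change was 1.72 (edgeR adjusted p = 7.47e-07). The genes of largest pooled change among those called in opposite directions were the collagenase Mmp13 (-1.12 and 5.47), Cx3cl1, Nos2, Cxcl2, Cxcl1, Mmp10, the growth factor Csf3, Lcn2, Sod2 and Mmp3. The 3 shared higher members were the chemokines Cxcl11, Cxcl12 and Ccl20, with Cxcl12 at 8.86, 6.18 and 10.5, 13.4, 14.4 and 15.8 and 20.9, 21.3 and 23.4 CPM. With the compounds as 1 group 2 rose in place of 33.

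Cholesterol synthesis and SREBP2 targets gave the reverse pattern. None of 25 tested genes was shared in either direction; the pooled contrast called 1 higher and 5 lower, and the pooled median was 0.02. YEXX-2A against vehicle called 14 higher and none lower, where 17.6% and 18.5% of all genes were called. YWCH-4A against vehicle called 18 lower and none higher, where 14.9% and 15.7% of all genes were called. Cyp51, lanosterol demethylase, was at 519.9, 377 and 526 CPM with vehicle, 886, 933 and 941 with YEXX-2A and 308, 317 and 318 with YWCH-4A. Its pooled change was 0.18 (SE 0.09, edgeR adjusted p = 0.155), although every compound library lay outside the vehicle range. Hmgcs1 (0.75 and -0.84) and Acat2 (0.37 and -0.54) did likewise.

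**Figure D5:**
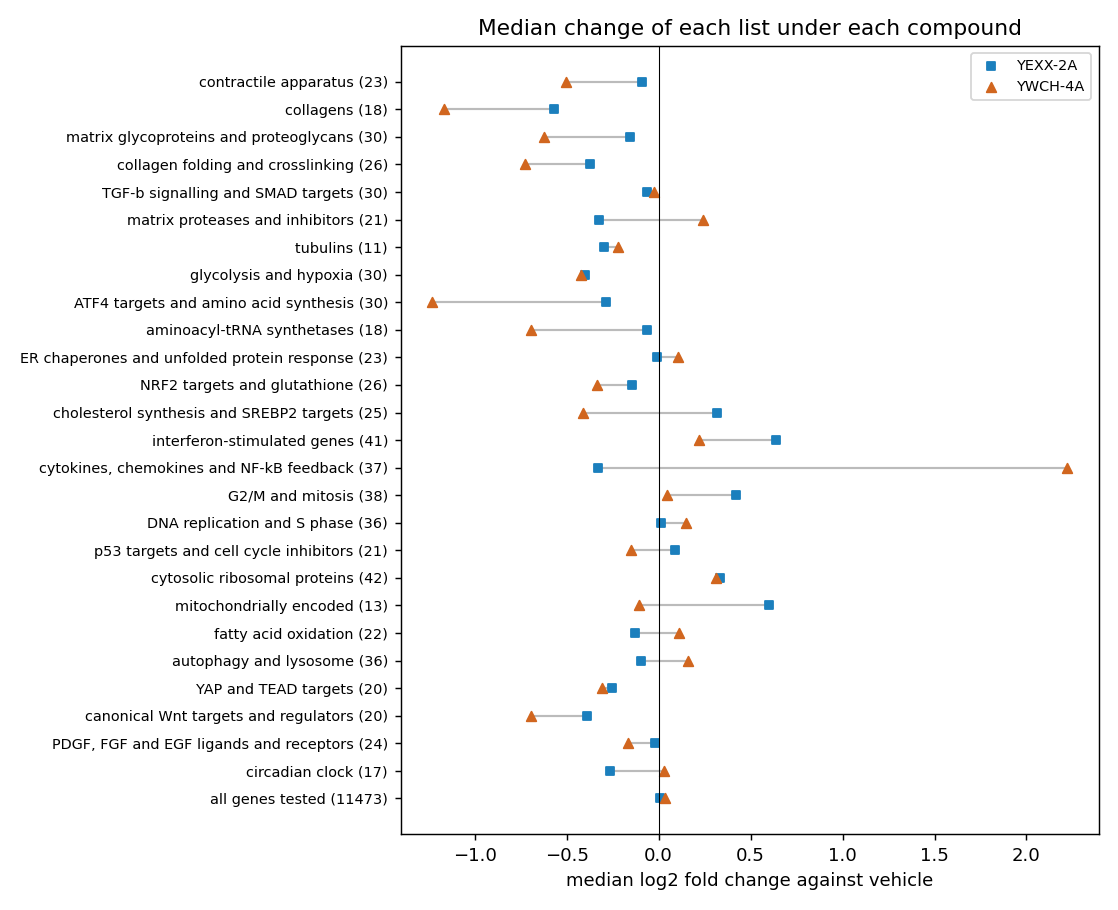
The x axis gives the median log2 fold change against vehicle of each list's tested genes (number in brackets), squares for YEXX-2A and triangles for YWCH-4A, joined by a line. The symbols coincide for glycolysis and hypoxia (-0.40 and -0.42) and ribosomal proteins (0.34 and 0.31), lie apart on the same side for collagens and ATF4 targets, and lie on opposite sides of 0 for cytokines (-0.33 and 2.22) and cholesterol synthesis (0.32 and -0.41).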

How the data were processed

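RNA-seq was made from oligo(dT)-selected RNA, per the labels' protocols. For each gene and library the authors deposited 1 estimated count and 1 FPKM value, per the file headers. How the estimated counts were normalized, if at all, before deposit is not given; FPKM, as the file headers name it, is scaled to transcript length and library size. The submitters' processing notes name StringTie 1.3.1, RSEM, DESeq2 and edgeR without roles. The aligner, genome build and annotation are not given in the sources used here. Whether the counting used strand is not given, so overlapping antisense genes cannot be separated. A deposited table of group values was not used.

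Estimated counts of 22050 genes were rounded. Of these, 7049 had no count, and 11473 passed filterByExpr of edgeR 4.0.16 (minimum count 10). Libraries were scaled with TMM. All 9 libraries entered a robust quasi-likelihood fit with group as the single factor, so the groups share a spread although their own spreads differ. Contrasts were the mean of both compound groups against vehicle, each compound against vehicle, and YWCH-4A against YEXX-2A. P-values are two-sided and adjusted by Benjamini-Hochberg over all tested genes. The standard error of a log2 change was derived from it and its F statistic (change over root F). On simulated counts of 11473 genes for the pooled contrast, 85% of genes changed 1.5-fold and 99% of those changed 2-fold were called, with 9 false calls. The simulation gave all groups the same spread and both compounds the same fold. In these libraries the spread was 16.7% with vehicle, 7.34% with YEXX-2A and 3.67% with YWCH-4A, so the simulated rates do not measure recovery or false calls here. Computations ran in R 4.3.3 with limma 3.58.1 and DESeq2 1.42.0 for alternatives.

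The shared genes, the 30 gene lists and the tests were chosen with earlier results of these data known. Of the list entries, 796 matched by symbol, 15 by a RefSeq synonym (GRCr8) and 34 not. Genes named are the 12 shared rises and 12 falls with the largest smaller change among called genes of at least 1 CPM, up to 5 shared members of each list by pooled p with up to 3 called in opposite directions, a fibrosis panel, the 10 largest opposite changes and the genes at the edges of the rule. Other list members with values and Spp1 were chosen after their values were seen. Symbols shared by 2 or more genes numbered 133. Implied transcript length is the count divided by the FPKM and the library total, as the median over libraries with at least 50 counts. Alternatives were other scalings, filters, tests and designs, leaving out single libraries and a minimum fold of 2. Promoter sequences are from RefSeq (GRCr8).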

Additional observations from a re-analysis of the deposited data

How the results depend on the processing

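With library totals as the scale the pooled contrast called 3168 genes higher and 1165 lower, and 2249 were shared higher and 802 shared lower. A limma test on log2(FPKM + 1) called 3486 higher and 1125 lower. Limma-voom with weights per group called 954 higher and 1336 lower in the pooled contrast and 1032 of the shared genes as different between the compounds, against 583 here. Taking the compounds as 1 group called 564 and 786, and 1350 of the 3789 calls recurred; that design counts the distance between the compounds as spread. Requiring at least a 2-fold change left 174 and 169. DESeq2's size factors, its Wald test, no filter on low counts and a stricter one moved none of these counts by more than 1.5 times, where they applied.

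Leaving out each library in turn gave 1136 to 2348 genes called higher by the pooled contrast (the lowest without YWCH-4A replicate 2) and 1469 to 2262 called lower. It gave 1292 to 2037 shared higher (the highest without vehicle replicate 3) and 1567 to 2025 shared lower, more than 1252 and 1505 because the rule then binds fewer libraries. Shared genes called as different between the compounds numbered 409 to 1068. YEXX-2A against vehicle called 1044 to 5308 genes, against 4145, with 1044 without its replicate 2 and 1459 without its replicate 1, and YWCH-4A against vehicle 2450 to 4588, against 3516. Of 232 results for named genes, 156 kept their direction and their side of the threshold in every alternative run and none reversed. Treating the compounds as 1 group lost 70 of the calls, limma-voom 14, and leaving out 1 library 7: Krt7, Pdgfrb, Slc38a2, Lef1, Pfkm, Txnrd1 and Taldo1. The causes were not tested.

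Deviations of libraries with the same replicate number from their group means correlated at -0.26 to 0.08 over 9 pairs. Over 18 pairs with different numbers the range was -0.20 to 0.23. With 3 libraries per group these values cannot exclude a pairing or a batch across numbers. With the replicate block the pooled contrast called 1142 genes higher and 1435 lower, YEXX-2A against vehicle 1931 and YWCH-4A against vehicle 2787. Genes under about 1 CPM rest on few counts, and depth limits what can be said of them.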

Other observations

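Wnt and YAP readouts were lower under both compounds in part of their lists. Of 20 tested genes of canonical Wnt signalling, 11 fell and 2 rose, and 9 were shared lower (45.0%, against 13.1% of all genes) and 1 higher. Axin2, the feedback inhibitor that is the usual readout of β-catenin, was at 21.4, 20.5 and 21.1 CPM with vehicle, 13.8, 13.6 and 14.0 with YEXX-2A and 11.6, 10.5 and 11.9 with YWCH-4A. The ligand gene Wnt4 fell by 0.70 and 2.19 on the log2 scale, the receptor gene Fzd2 by 0.71 and 1.14, and Tcf7, Nkd1, Apcdd1, Wif1, Wnt9a and Ccn5 were also shared lower. Lef1, a partner of β-catenin, was shared higher (0.20 and 0.21), and Sfrp4 and Wnt5a went opposite ways. With the compounds as 1 group 5 of the Wnt list fell. Of 20 YAP and TEAD targets, 11 fell and 3 rose, and 7 were shared lower (35.0%), Ajuba by 0.22 and 1.13; with library totals as the scale 7 fell, and with the compounds as 1 group 5. F3, the tissue factor gene, was the shared higher member (34.0 ± 5.44, 55.2 ± 1.59 and 94.3 ± 4.47 CPM).

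Growth factor and clock genes held members on both sides. Of 24 genes of PDGF, FGF and EGF signalling, 6 were shared lower (25.0%, against 13.1% of all genes) and 3 higher (12.5%, against 10.9%). With library totals as the scale 3 were shared lower. The EGF receptor ligands Hbegf and Nrg1 were lower (-0.27 and -1.53; -0.18 and -0.95), and Fgf1 was higher, at 64.3, 53.2 and 68.5 CPM with vehicle, 81.9, 88.4 and 79.0 with YEXX-2A and 118, 128 and 124 with YWCH-4A. Of 17 clock genes 4 were shared lower (23.5%), Bhlhe40, Ciart, Per3 and Cry2. Nr1d2 alone was shared higher (5.88% of the list), by 0.52 and 0.67.

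Of 36 genes of DNA replication, 5 were shared higher (13.9%, against 10.9% of all genes) and 1 lower (2.78%, against 13.1%). The pooled contrast called 11 higher (30.6%, against 15.5%) and 3 lower. Without YEXX-2A replicate 2 it called 6 higher, and with library totals as the scale 19, with 12 shared higher. Pcna, the replication clamp, was at 69.9, 53.5 and 73.9 CPM with vehicle, 99.6, 108 and 95.6 with YEXX-2A and 94.9, 102 and 91.2 with YWCH-4A, and Tyms, Rfc4 and Rrm1 rose by 0.42 to 0.55 in the pooled contrast. Of 38 G2/M genes, 5 rose (13.2%, against 15.5% of all genes) and 1 fell (2.63%, against 17.6%) in the pooled contrast. The number of G2/M rises ran from 1 without YEXX-2A replicate 1 to 12 without vehicle replicate 3. Of 23 genes of endoplasmic reticulum chaperones, 4 were shared higher (17.4%, against 10.9% of all genes), among them Dnajb9 at 8.96 ± 2.65, 15.2 ± 1.47 and 12.7 ± 0.560 CPM. The number of rises in that list was 3 (13.0%, against 15.5% of all genes), or 9 without vehicle replicate 2. Of 36 autophagy and lysosome genes 5 were shared higher (13.9%, against 10.9% of all genes) and 3 lower (8.33%, against 13.1%). With library totals as the scale 11 were shared higher. Neu1, a lysosomal sialidase, was higher (425 ± 47.5, 572 ± 19.6 and 791 ± 8.92 CPM), and Tfeb, a transcription factor of lysosomal genes, and the autophagy receptor gene Sqstm1 were lower (-0.60 and -0.57; -0.33 and -0.38). Of 22 fatty acid oxidation genes 3 were shared higher (13.6%, against 10.9% of all genes), among them Acadm, a medium-chain acyl-CoA dehydrogenase (0.51 and 0.54). Of 13 mitochondrially encoded genes Mt-nd6 alone was shared, higher, with medians of 0.60 with YEXX-2A and -0.11 with YWCH-4A over the list. Of 3 tested kidney epithelial markers, the keratins Krt8 (1903 ± 262, 1528 ± 43.3 and 924 ± 25.0 CPM) and Krt7 were shared lower. Of 4 tested endothelial markers Flt1 was shared higher (5.85 ± 0.967, 8.55 ± 0.353 and 10.5 ± 0.766 CPM) and Ptprb was called lower by the pooled contrast (11.2 ± 1.38, 13.9 ± 0.567 and 3.03 ± 0.352 CPM).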
